A study of Mus musculus with 2 samples.

Results

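A list of 10 genes of macrophages and of the complement system, Cx3cr1, Csf1r, C1qa, C1qb, C1qc, Aif1, Ptprc, Cd68, Lyz2 and Mrc1, was followed in dissociated mouse pituitary cells. The genes were taken by symbol, not by their values, and all 10 were found among the 47069 genes of the count table and had a mean of at least 1 CPM. CPM are counts per 1000000 counts of a library, and 16504 genes reached that mean.

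Bulk RNA-seq of poly(A) RNA was performed on 2 samples of primary pituitary cells, to compare the buffer RNA-Best, which is intended to preserve whole single cells, with RNAlater, the reference reagent. Both samples came from female C57BL/6 mice of a pure line, 10 to 12 weeks old and cycling at random. Each sample was a pool of 500000 to 700000 cells of 5 pituitaries, digested with collagenase, dispersed with pancreatine and stored at once in its reagent. The only labelled difference was the reagent, with 1 library for each, so values of single animals were not measured and no difference had a replicate check. Totals were 53915047 counts in RNA-Best and 44917492 in RNAlater, and with 1 library a side no test or p-value is given. Ratios are log2 of RNA-Best over RNAlater after adding 0.5 CPM to both, which understates the ratio of low genes. The bracketed 95% interval of each ratio is exact and covers counting error only, not the spread between pools of animals. The stabilizer, the animals, the cells recovered and the library preparation cannot be told apart, nor can fewer cells of a type from less RNA per cell.

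Tissue macrophages are phagocytes that lodge in most organs, including the pituitary, where they lie among the hormone-secreting cells and along the vessels. Many depend on the receptor encoded by Csf1r, which binds the growth factors CSF1 and IL34, and they clear dying cells and debris into lysosomes. They are also a main source of C1q, the recognition molecule of the classical complement pathway. C1q binds antibody complexes and cell debris, and with the proteases C1r and C1s it starts the cascade that deposits C3 on a target.

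The 3 chains of C1q are encoded side by side on chromosome 4 of the mouse assembly GRCm38, within 18675 bases (chr4:136880129-136898803) and all on the minus strand. Because these neighbours lay on the same side of the comparison, the 250 bases before the transcription start are shown for both that had an entry in the RefSeq promoter table (GRCm38.p6), with Lyz2, which lay on that side too, and Mrc1, which did not. Capitals mark the letters ACTTCCT, which are AGGAAGT on the other strand, a core bound by ETS factors such as the macrophage regulator PU.1. The windows lie at chr4:136886201-136886450 (C1qb, minus strand), chr4:136892915-136893164 (C1qc, minus strand), chr10:117282273-117282522 (Lyz2, minus strand) and chr2:14229164-14229413 (Mrc1, plus strand).
C1qb: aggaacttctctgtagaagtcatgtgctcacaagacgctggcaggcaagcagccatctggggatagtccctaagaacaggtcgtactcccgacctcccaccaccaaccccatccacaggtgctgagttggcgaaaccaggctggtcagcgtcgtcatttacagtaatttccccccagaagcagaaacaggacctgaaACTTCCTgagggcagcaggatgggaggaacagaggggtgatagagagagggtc
C1qc: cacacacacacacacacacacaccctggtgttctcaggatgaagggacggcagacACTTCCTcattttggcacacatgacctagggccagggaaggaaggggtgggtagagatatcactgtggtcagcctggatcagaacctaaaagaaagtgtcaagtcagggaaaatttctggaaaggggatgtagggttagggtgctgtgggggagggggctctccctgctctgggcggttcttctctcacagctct
Lyz2: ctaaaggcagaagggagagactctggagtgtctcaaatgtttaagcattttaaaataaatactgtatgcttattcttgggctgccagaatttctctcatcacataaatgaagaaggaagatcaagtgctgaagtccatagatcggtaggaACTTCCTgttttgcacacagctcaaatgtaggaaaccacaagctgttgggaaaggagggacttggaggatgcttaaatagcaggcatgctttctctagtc
Mrc1: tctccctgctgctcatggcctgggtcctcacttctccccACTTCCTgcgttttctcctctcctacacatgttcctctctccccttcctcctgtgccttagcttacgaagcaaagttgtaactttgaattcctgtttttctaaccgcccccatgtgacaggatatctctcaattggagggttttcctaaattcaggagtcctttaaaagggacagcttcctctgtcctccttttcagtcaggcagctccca

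The capitals begin 53 bases before the start in C1qb, 195 in C1qc, 100 in Lyz2 and 211 in Mrc1, each counted to the far end of the match. Windows were found for 8 of the 10 genes, and AGGAAGT stood on either strand in 5 of them, these 4 and Ptprc. Of all 32851 promoter windows of this length, 2525 (7.69%) held it. The letters were chosen after the sequences were seen, and a match describes the sequence and shows no bound site. Genes with the letters lay on both sides of the comparison: C1qb, C1qc and Lyz2 were higher in RNA-Best, and Ptprc and Mrc1 were higher in RNAlater.

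All 3 C1q chains were higher in RNA-Best. C1qa, the A chain, was counted 3163 times in RNA-Best and 1776 times in RNAlater, or 58.7 and 39.5 CPM, a log2 ratio of 0.56 [0.48, 0.65]. C1qb, the B chain, stood at 51.3 CPM (2767 counts) with RNA-Best and 40.0 CPM (1798 counts) with RNAlater, a ratio of 0.35 [0.27, 0.44]. C1qc, the C chain, stood at 31.8 CPM (1712 counts) and 26.6 CPM (1196 counts), a ratio of 0.25 [0.15, 0.36]. The excess in RNA-Best was thus 1.48-fold for the A chain, 1.28-fold for the B chain and 1.19-fold for the C chain. Summed over the locus, the chains gave 142 CPM with RNA-Best and 106 CPM with RNAlater, a ratio of 0.41 [0.36, 0.47].

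C1q protein holds its 3 chains in equal number, but their mRNAs were not equal in either library. C1qa took 41.4% of the C1q counts with RNA-Best, 40.3 to 42.5% by the exact Clopper-Pearson method at 95%, and 37.2% with RNAlater (35.9 to 38.6%). C1qb took 36.2% (35.1 to 37.3%) and 37.7% (36.3 to 39.1%). C1qc took 22.4% (21.5 to 23.4%) and 25.1% (23.8 to 26.3%). The intervals of C1qa and of C1qc did not overlap between the libraries, and those of C1qb did. These intervals, too, cover counting error only. How often the shares of other gene groups lie apart was not computed, so the lack of overlap does not set C1q apart. The shares restate the ratios of the 3 chains given above and are no separate result. Per kilobase of the longest annotated transcript, the shares of C1qa, C1qb and C1qc were 43.4, 36.3 and 20.3% in RNA-Best and 39.2, 38.0 and 22.8% in RNAlater, so C1qa led and C1qc came last in both. The level of C1qa per kilobase was 2.14 times that of C1qc in RNA-Best and 1.72 times in RNAlater.

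The receptors for CSF1 and fractalkine stood on the other side. Csf1r, the CSF1 receptor tyrosine kinase (chr18:61100598-61132149, plus strand), was at 17.8 CPM (961 counts) with RNA-Best and 30.3 CPM (1360 counts) with RNAlater, a ratio of -0.75 [-0.89, -0.64]. Cx3cr1, the fractalkine receptor that marks microglia and many monocyte-derived cells (chr9:119901616-120069879, minus strand), was at 4.49 CPM (242 counts) with RNA-Best and 8.30 CPM (373 counts) with RNAlater, a ratio of -0.82 [-1.13, -0.65]. These were 1.70-fold and 1.85-fold higher in RNAlater, the widest gaps of the list in that direction. Some Csf1r reads could be shared with its neighbour Hmgxb3, which overlaps it by 873 bases on the opposite strand: 823 of 4651 51-base windows of the longest Csf1r transcript (17.7%) also occur in an Hmgxb3 transcript. Hmgxb3 itself had 1022 counts with RNA-Best and 1110 with RNAlater, and the strand setting of the counting is not given in the sources used here. The annotated span of Cx3cr1 also runs across other genes, among them Csrnp1 and Gorasp1, but only 45 of its 4443 windows (1.01%) occur in a transcript of another gene.

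The ligands of these receptors were in the libraries too. Csf1, a ligand of CSF1R, was at 27.1 CPM with RNA-Best and 56.2 CPM with RNAlater, a ratio of -1.04 [-1.14, -0.96]. Il34, its other ligand, had 106 counts (1.97 CPM) in RNA-Best and 26 counts (0.579 CPM) in RNAlater, a ratio of 1.19. Cx3cl1, fractalkine itself, was at 199 CPM with RNA-Best and 354 CPM with RNAlater, with a ratio of -0.83. Il34 reached the mean of 1 CPM only through RNA-Best, so its direction is given as a value alone. Of the 6 macrophage ligand and growth factor genes listed, 5 were tested. Of these, 1 was higher in RNA-Best and 4 were lower, with a median ratio of -0.51, beside 67.0% of all genes lower. The others tested were Ccl2, a monocyte chemoattractant, at 22.5 and 25.5 CPM (-0.18), and Csf3, the granulocyte growth factor, at 20.0 and 28.7 CPM (-0.51).

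Among the intracellular and pan-leukocyte genes the directions were split. Aif1, which encodes the calcium-binding protein IBA1 used to stain macrophages and microglia (chr17:35170991-35176068, minus strand), was at 8.55 CPM (461 counts) with RNA-Best and 6.06 CPM (272 counts) with RNAlater, a ratio of 0.47 [0.28, 0.72]. Ptprc, which encodes CD45, the tyrosine phosphatase on the surface of all nucleated blood cells (chr1:138062861-138175708, minus strand), was at 13.1 CPM (707 counts) and 17.9 CPM (802 counts), a ratio of -0.43 [-0.59, -0.30]. Aif1 was 1.41-fold higher in RNA-Best and Ptprc 1.36-fold higher in RNAlater. Neither shared a 51-base window with a transcript of another gene.

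The phagocytic and lysosomal genes were split as well. Lyz2, which encodes the lysozyme of macrophages and neutrophils (chr10:117277331-117282321, minus strand), was at 54.9 CPM (2957.5 counts) with RNA-Best and 41.9 CPM (1881 counts) with RNAlater, a ratio of 0.39 [0.31, 0.47]. Cd68, which encodes a heavily glycosylated protein of late endosomes and lysosomes (chr11:69664213-69666153, minus strand), was at 10.5 CPM (566 counts) and 16.6 CPM (745 counts), a ratio of -0.64 [-0.82, -0.50]. Mrc1, which encodes the mannose receptor CD206 of resident macrophages (chr2:14229392-14332057, plus strand), had the fewest counts of the 10, with 3.93 CPM (212 counts) in RNA-Best and 5.77 CPM (259 counts) in RNAlater, a ratio of -0.50 [-0.82, -0.28]. Lyz2 was 1.31-fold higher in RNA-Best, and Cd68 and Mrc1 were 1.58-fold and 1.47-fold higher in RNAlater. Lyz2 has a close copy, Lyz1, and 187 of its 1266 windows (14.8%) occur there; its count in RNA-Best was the only one of the list that was not whole, which shows that some reads were divided between features. Lyz1 was at 4.48 CPM with RNA-Best and 3.74 CPM with RNAlater (0.23), and the sum of both lysozyme genes gave a ratio of 0.38 [0.30, 0.46], close to that of Lyz2 alone.

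**Figure D1:**
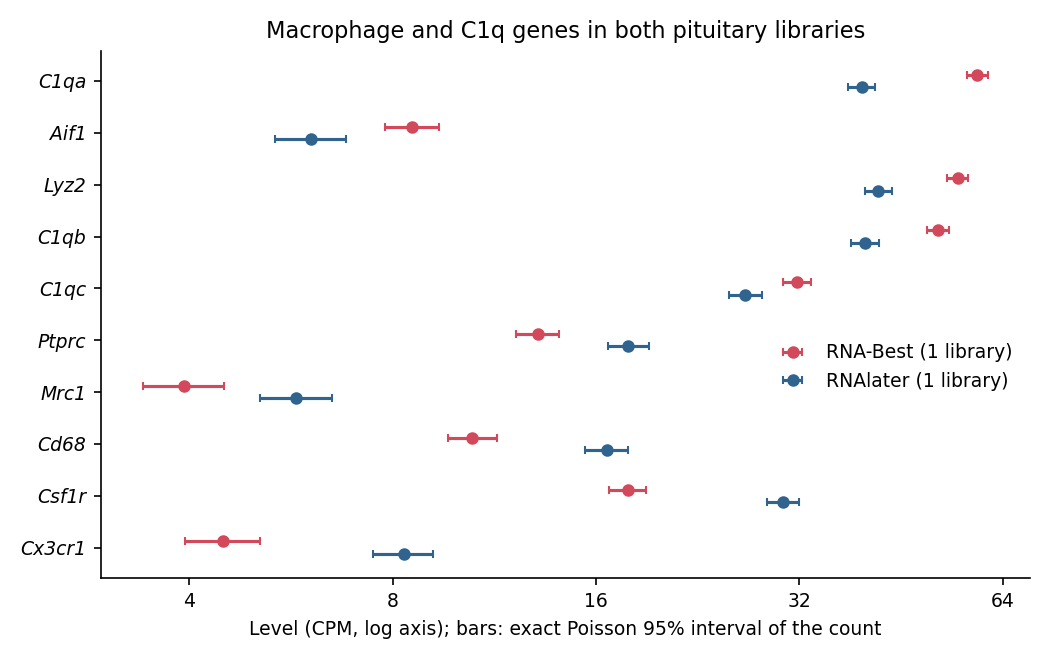
Level of each of the 10 genes in both libraries in CPM on a log axis, with exact 95% Poisson intervals of the counts as bars. RNA-Best points lie to the right for C1qa, Aif1, Lyz2, C1qb and C1qc and to the left for Ptprc, Mrc1, Cd68, Csf1r and Cx3cr1. The bars of the libraries do not overlap for any gene shown, but they cover counting error only, not the spread between pools of animals. The share of all genes tested whose bars lie apart is not given, so the lack of overlap does not set these genes apart from others.

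As a list, 5 of the 10 genes were higher in RNA-Best and 5 were lower, whereas 33% of all 16504 genes tested were higher. Past 1.5-fold, 0 of 10 were higher, beside 3.22% of all genes, and 3 (Cx3cr1, Csf1r and Cd68) were lower, beside 18.8% of all genes. Past 2-fold, 0 of 10 lay in either direction, beside 0.273% of all genes higher and 4.99% lower. The median ratio of the list was -0.09, and that of all genes tested was -0.18. The median of all genes moved to -0.01 with TMM scaling and to -0.00 with DESeq2 size factors. Under either, C1qa and Aif1 passed 1.5-fold higher, and Cx3cr1 alone passed 1.5-fold lower, beside 7.31% or 7.72% of all genes past that fold higher and 11.5% or 11.1% lower. The share of all genes that were higher was then 48.6% or 49.6%, and the 5 genes higher and 5 lower were the same ones. The summed counts of the list changed less than its members did: 255 CPM with RNA-Best and 233 CPM with RNAlater, a ratio of 0.13 [0.09, 0.17]. The 5 genes that were higher summed to 205 and 154 CPM, and the 5 that were lower to 49.9 and 78.8 CPM.

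The order of abundance within each library was compared per kilobase of the longest annotated transcript. From high to low it was C1qa, C1qb, Lyz2, C1qc, Aif1, Cd68, Csf1r, Ptprc, Cx3cr1 and Mrc1 in RNA-Best, from 56.4 to 0.732 CPM per kilobase. In RNAlater it was the same apart from Cd68 and Aif1, which changed places, and it ran from 38.0 to 1.07 CPM per kilobase. The distances between the genes differed more than the order. C1qa was 14.9 times as abundant per kilobase as Csf1r in RNA-Best and 5.90 times in RNAlater. Aif1 was 9.78 times as abundant per kilobase as Cx3cr1 in RNA-Best and 3.74 times in RNAlater. Lyz2 was 4.88 times as abundant per kilobase as Cd68 in RNA-Best and 2.36 times in RNAlater. Cd68 was 2.25 times as abundant per kilobase as Csf1r, a gene of the same direction, in RNA-Best and 2.09 times in RNAlater. Ratios of macrophage genes to each other differed by up to 2.75-fold between the libraries in the pairs compared. The widest was C1qa to Cx3cr1 (56.5 and 20.6 times), the ends of the list. Such a change is fixed by the ratios of both genes given above, whatever their length, so these pairs restate those ratios and are no separate result.

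The 5 genes that were higher in RNA-Best had the shorter transcripts, from 875 bases in Aif1 to 1316 in Lyz2, and 4 of the 5 that were lower had transcripts from 4493 bases in Cx3cr1 to 5740 in Ptprc. Transcript length moved with the ratio across all genes: the median ratio was 0.29 over 2093 genes of up to 1 kb, 0.07 over 2715 genes of 1 to 2 kb, -0.40 over 3464 genes of 4 to 6 kb and -0.90 over 373 genes longer than 10 kb. Set against the median of its own length class, Ptprc differed by -0.03 and Mrc1 by -0.10, so both lay near other genes of their length. Csf1r and Cx3cr1 differed by -0.35 and -0.42, with 17.2% and 12.6% of the genes of their class below them. C1qa differed by 0.50, with 95.7% of its class below it. The other short genes that were higher, C1qb, C1qc, Aif1 and Lyz2, lay 0.29, 0.18, 0.18 and 0.32 above their class medians.

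Cd68 was the exception to the order by length. Its longest transcript has 1230 bases, close to those of C1qb and Lyz2, but its ratio of -0.64 was 0.70 below the median of its class, and 67 of the 2715 genes of 1 to 2 kb (2.47%) lay below it. Its counts were whole in both libraries and none of its windows occurred in a transcript of another gene. The part of transcript length in any of these ratios was not tested.

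**Figure D2:**
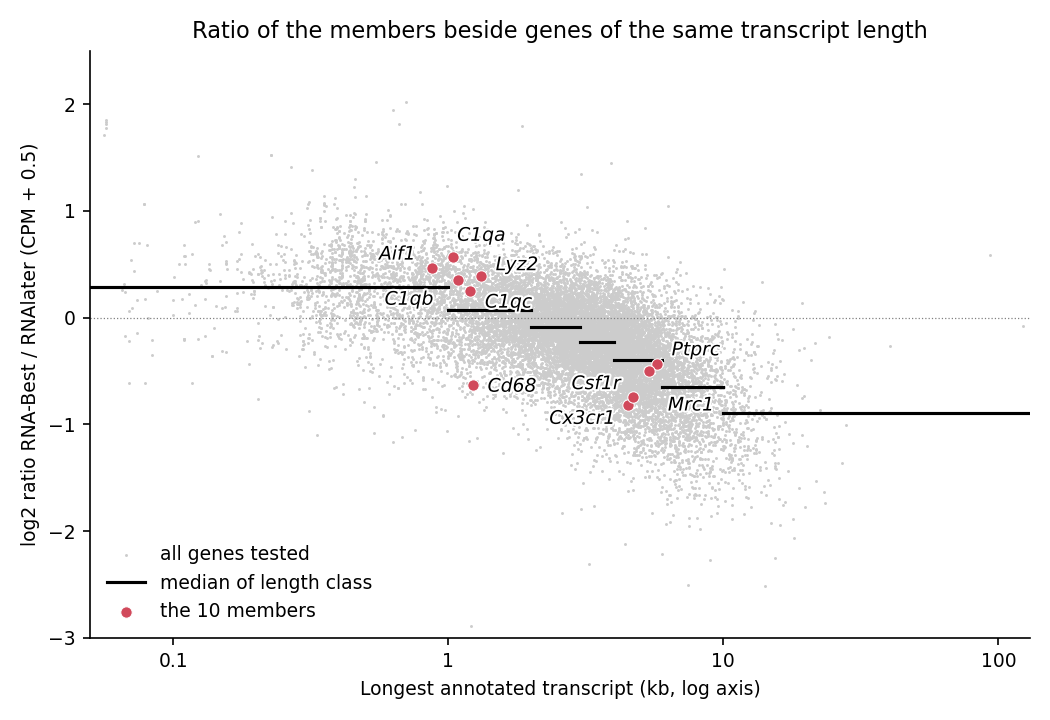
Log2 ratio of RNA-Best to RNAlater for every gene tested with an annotated length (grey points) against the longest transcript in kilobases on a log axis, with the median of each length class as a black line and the 10 genes in red. The 5 genes of 875 to 1316 bases that were higher lie above their class lines, Cd68 at -0.64 lies far below its own, and Ptprc and Mrc1 lie close to theirs.

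The same split by length was seen over the wider set of macrophage genes. The 10 genes with the listed transcription factors, surface and signalling genes, and markers of resident macrophages and of microglia made 54 tested genes. Of the 21 with a transcript of up to 2 kb, 13 (61.9%) were higher in RNA-Best, beside 66.3% of all genes of that length. Of the 33 longer ones, 8 (24.2%) were higher, beside 19.2% of all genes of that length. These shares were near those of all genes of like length. Fcer1g, the signalling chain of Fc receptors, was the only one of 6 macrophage genes of up to 1 kb that was lower, at 6.19 CPM with RNA-Best and 8.55 CPM with RNAlater (-0.43).

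Complement genes other than C1q were compared in the same way. Of 39 found, 24 were tested; 6 were higher in RNA-Best and 18 lower, 0 of them at least 1.5-fold higher and 6 at least 1.5-fold lower, with a median ratio of -0.24. Of the complement genes tested 75% were lower and 25% at least 1.5-fold lower, beside 67.0% and 18.8% of all genes tested, and shares so near the background are no result about complement genes. All 6 tested genes of initiation were lower, with a median of -0.57. C1s1 and C1ra, the proteases that C1q activates, were at 6.23 and 4.42 CPM in RNA-Best and at 9.71 and 5.13 CPM in RNAlater, ratios of -0.60 [-0.85, -0.43] and -0.19 [-0.48, 0.05]. The counting interval of C1ra included 0, as did that of C2, a protease of the next step, at 1.09 and 1.34 CPM (-0.20 [-0.83, 0.26]). C4b, the next component of the cascade, was at 1.78 and 3.54 CPM (-0.82), and C3, the component that is deposited on targets, at 17.8 and 26.2 CPM (-0.54 [-0.68, -0.43]). C3, C4b and C1s1 thus lay on the opposite side to the C1q chains, but their longest transcripts, of 5136, 5379 and 2946 bases, are longer than those of C1q. Against the medians of their length classes they differed by -0.14, -0.43 and -0.51, and the part of length in this contrast was not tested.

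Regulators, which keep complement from acting on the body's own cells, were mixed, with 4 of 8 tested higher and 4 lower. Among all genes tested, 33% were higher. Clu, which encodes clusterin, had the highest CPM of them, 621 CPM with RNA-Best and 766 CPM with RNAlater (-0.30). Serping1, the C1 inhibitor, was at 16.3 and 18.5 CPM (-0.17). The membrane regulators Cr1l and Cd59a were higher in RNA-Best, at 60.9 and 56.6 CPM there and at 49.1 and 46.9 CPM in RNAlater, with ratios of 0.31 [0.23, 0.39] and 0.27 [0.19, 0.35]. Cd46 and Cd55, also membrane regulators, formed the ends of the group at 0.57 and -0.49, so regulators at the cell surface did not share a direction.

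All 7 tested complement receptor genes were lower in RNA-Best, with a median of -0.40, beside 67.0% of all genes tested that were lower. Against the medians of their length classes, 2 of the 7 lay above. Cd93, first described as a C1q receptor and strong in endothelium, was at 19.5 CPM with RNA-Best and 45.4 CPM with RNAlater (-1.20 [-1.32, -1.11]), the only gene of the complement lists past 2-fold. Calr, the chaperone calreticulin that can bind C1q at the cell surface, was at 805 and 822 CPM (-0.03). The receptors of the anaphylatoxins, C3ar1 and C5ar1, which are typical of myeloid cells, were at 5.03 and 4.77 CPM in RNA-Best and at 6.23 and 6.06 CPM in RNAlater, ratios of -0.29 and -0.32. Itgb2, the shared beta chain of the integrin receptors for C3 fragments, was at 6.32 and 8.53 CPM (-0.40). Of the terminal pathway, Hc (mouse C5) and C8g were tested, with ratios of 0.07 and 0.10 whose counting intervals included 0, and of the alternative pathway Cfp, properdin, with -0.20. The 6 complement genes at 0 counts in both libraries were Mbl1, Cfd, C8a, C8b, C4bp and Vsig4, and a count of 0 allows up to 0.0556 CPM with RNA-Best and 0.0668 CPM with RNAlater. C4b has a near-identical neighbour, so its counts are uncertain.

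**Figure D3:**
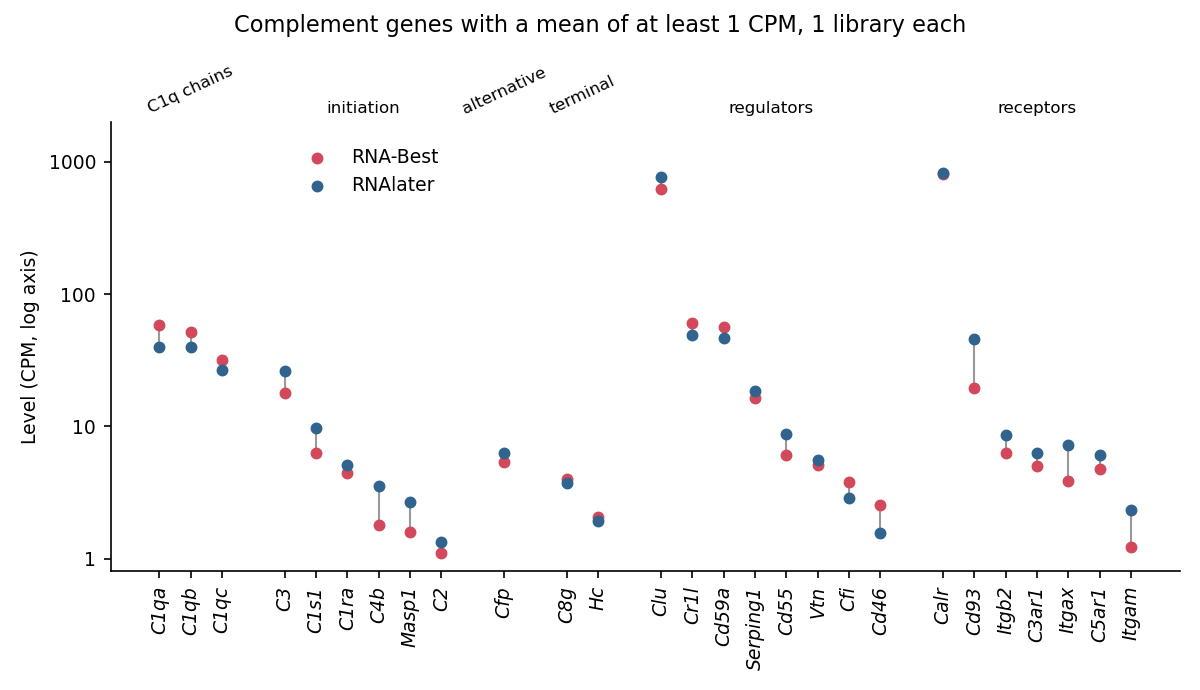
Level in CPM on a log axis of the C1q chains and the other 24 complement genes whose mean reached 1 CPM, grouped by role, with RNA-Best in red, RNAlater in blue and a grey line joining the values of 1 gene. The red points lie above the blue for all 3 C1q chains and below for all 6 initiation and all 7 receptor genes. Of all genes tested, 67.0% were lower in RNA-Best.

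Other macrophage genes served to check the label of the list. All 22 listed surface and signalling genes were tested, so the macrophage signal did not rest on the 10 genes alone, and their summed level was 405 CPM with RNA-Best and 447 CPM with RNAlater. Of them 10 were higher in RNA-Best and 12 lower, with a median of -0.07, beside 33% of all genes tested that were higher. Ctss, the lysosomal protease cathepsin S, had the highest CPM of them, 96.3 and 90.9 (0.08), followed by Cd14, the lipopolysaccharide co-receptor, at 62.2 and 72.5 CPM (-0.22). Cyba, a subunit of the NADPH oxidase, and Lcp1, an actin-bundling protein of leukocytes, formed the ends at 0.40 and -0.79. Tyrobp and Trem2, an adaptor and its receptor that act together in phagocytes, had ratios of 0.32 and 0.38. Against the medians of their length classes they were less alike, at 0.03 and 0.78. The value of Trem2 depends on its longest transcript of 4784 bases, whereas its median annotated transcript has 1072. Adgre1, which encodes a classical surface antigen of mature macrophages, was at 11.3 and 13.1 CPM (-0.20).

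Of 10 transcription factor genes of the lineage, 1 was higher in RNA-Best and 9 were lower, 4 of them by at least 1.5-fold, with a median of -0.48. Of all genes tested, 67.0% were lower and 18.8% at least 1.5-fold lower. Against the median of its length class, 3 of the 10 lay above, and the median difference was -0.31. Spi1, which encodes PU.1, was at 4.34 CPM with RNA-Best and 4.39 CPM with RNAlater, a ratio of -0.01 [-0.29, 0.27]. Irf8, a partner of PU.1, was at 20.8 and 35.4 CPM (-0.76). Runx1, a regulator of blood lineages, formed the lower end at -0.95, and Nr1h3, the oxysterol receptor LXR alpha, the upper end at 0.16. Cebpb and Id3, which many other cells express, had the highest CPM, 54.6 and 55.1 CPM with RNA-Best and 58.8 and 65.6 CPM with RNAlater.

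Markers of resident macrophages and of microglia were present at uneven levels. Of the 12 resident macrophage genes, 5 were tested, and Cd163, Lyve1, F13a1 and Timd4, classical markers of perivascular and other resident cells, were below 1 CPM in both libraries. Ms4a7 was at 14.1 CPM with RNA-Best and 9.53 CPM with RNAlater (0.54 [0.39, 0.74]). Stab1, a scavenger receptor that endothelium also makes, was at 11.7 and 44.4 CPM (-1.88). All 7 microglia genes were tested, 3 higher and 4 lower, among them P2ry12 at 2.19 and 2.18 CPM and Tmem119 at 2.75 and 3.50 CPM. The share of all genes tested that were higher was 33%. The ends of that list were Gpr34 at 0.62 and Sall1 at -1.19. Sparc, the gene of that list with the highest CPM, is made by many other cells. Olfml3 had the next highest CPM of the list, 25.4 with RNA-Best and 24.7 with RNAlater (0.04). P2ry12 and Tmem119, defining genes of brain microglia, were thus low but above 0.

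The 14 tested genes of lysosomes and phagocytosis had a median of -0.10, with 3 higher and 11 lower, beside 67.0% of all genes lower. Those with the highest CPM, Ctsb at 657 and 689 CPM (-0.07), Apoe at 594 and 648 CPM (-0.12) and Ctsl at 464 and 394 CPM (0.24), are made by many cell types. Mertk, a receptor for dying cells, formed the lower end at -0.76. That median changed sign under other scalings, to between 0.03 and 0.08. Cd68, with a ratio of -0.64, was thus nearer to Mertk than to the cathepsins named.

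Other white blood cells could also carry Ptprc, Lyz2 and Cx3cr1. Of 12 lymphocyte genes 4 were tested, and the summed level of the list was 12.8 CPM with RNA-Best and 15.9 CPM with RNAlater. Of the T cell receptor genes, Cd3e had 5 and 16 counts, Cd3d 13 and 2, and Cd3g 14 and 22, all below 0.5 CPM. Cd4, which T cells share with some macrophages and dendritic cells, formed the lower end of the list with 108 and 224 counts (-1.13). Of 9 neutrophil genes 3 were tested, with a summed level of 5.44 and 7.49 CPM, and Elane, Mpo and Camp were at 0 counts in both. The 7 monocyte genes summed to 11.0 and 15.3 CPM, with 3 of 5 tested higher and Fn1, which fibroblasts also make, at the lower end (-1.74). The 6 dendritic cell genes summed to 12.5 and 21.2 CPM, with both tested genes lower, and of the 5 mast cell genes only Kit was tested (-0.87). Over all genes tested, 33% were higher and 67.0% lower. The part of these cells in the values of Ptprc, Lyz2 and Cx3cr1 was not tested.

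Lists of other cell types differed between the libraries as well. Each of the 5 erythroid genes exceeded 1.5-fold on the RNA-Best side, with a median ratio of 0.79 and a summed level of 3200 CPM against 1130 CPM in RNAlater. Of 10 endothelial genes 9 were lower in RNA-Best, with a median of -0.87 and sums of 430 and 813 CPM. All 10 pericyte and fibroblast genes were lower, with a median of -0.88 and sums of 590 and 801 CPM, and of 9 genes of stem and folliculostellate cells 8 were lower, with a median of -0.48. All 7 endocrine genes, from Gh at 0.04 to Tshb at 0.73, were higher. Of all genes tested, 33% were higher, 3.22% were at least 1.5-fold higher and 67.0% were lower. Against the medians of their length classes, 5 of the 7 endocrine genes and all 5 erythroid genes lay above. Of the 10 endothelial genes 0 lay above, of the 10 pericyte and fibroblast genes 1, and of the 9 stem and folliculostellate genes 1. The macrophage surface list, with its median of -0.07, lay between the erythroid and endocrine lists and those of vessels and connective tissue. The part of these cells in the results above was not tested.

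**Figure D4:**
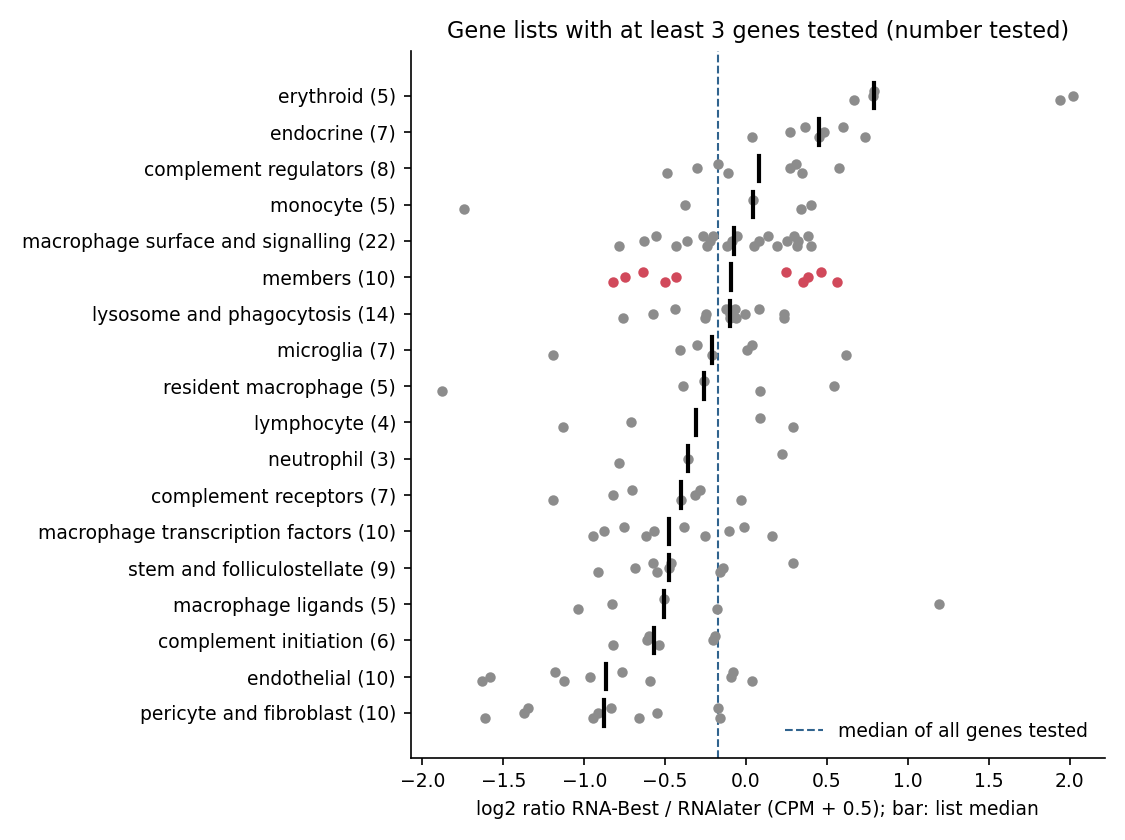
Log2 ratio of RNA-Best to RNAlater for every tested gene of each list with at least 3 genes tested, with the list median as a black bar, the 10 genes in red and the median of all genes (-0.18) as a dashed line. The 10 genes spread from -0.82 to 0.56 around a median of -0.09, the erythroid list lies at the right end (median 0.79) and the endothelial and pericyte lists at the left end (-0.87 and -0.88).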

How the data were processed

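RNA of both samples was extracted with an Agilent kit and made into libraries with the Illumina TruSeq LT mRNA kit. Per the submitters' processing notes, reads were processed with STAR 2.5.1b and featureCounts 1.5.0-p1 on mm10. The authors deposited estimated counts per Ensembl gene that were not normalized, of which 35.4% (RNA-Best) and 34.9% (RNAlater) of the values above 0 were fractional. The option that divided reads and the strand setting are not given in the sources used here. ERCC spike-ins were stated to have been added and were not used here.

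Symbols, coordinates and transcript lengths came from GENCODE M21 on GRCm38, where 46574 of 47069 identifiers matched, and 16453 of the 16504 genes tested (mean of at least 1 CPM) had a length. Counts were scaled by library totals and rounded for intervals (exact conditional binomial for ratios, exact Poisson for levels), because these methods take whole counts. A count of 0 was taken to allow up to 3 counts. PCR reads are not independent molecules, so intervals and floors cover counting error only. Because the longest annotated transcript sets the length class, an expressed shorter isoform would be misplaced. Alternatives changed the scaling (edgeR 4.0.16 TMM, DESeq2 1.42.0 size factors, totals without Prl and Gh), the pseudocount, the filter and the length measure, and the steps were tested on simulated data. Python 3.11.15, numpy 2.4.6, scipy 1.17.1, pandas 2.3.3 and R 4.3.3 were used.

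The 10 genes and the 22 lists were chosen with earlier results of these data known. A pair of listed genes is not reported here and was left out of its lists. Named were all 10 genes, Lyz1, of each list the 3 genes with the highest mean CPM and both ends of the ratio among genes tested, and complement genes whose mean reached 10 CPM, though not every gene that the rule allows is described. Spi1, Irf8, Hmgxb3, C3ar1, C5ar1, Itgb2, C2, Tyrobp, Trem2, Adgre1, Fcer1g, P2ry12, Tmem119, genes at 0 counts and other low markers were named after their values were seen, and the joint set of 54 macrophage genes was formed then too.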

Additional observations from a re-analysis of the deposited data

How the results depend on the processing

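Each of the 10 ratios kept its direction in all 50 values computed under the other scalings and pseudocounts, 5 settings in all. The median of the list, -0.09, was 0.078 with TMM, 0.090 with DESeq2 size factors and 0.25 when a mean of at least 10 CPM was required, which left 7 of its genes. The ratio of the summed C1q chains, 0.41, was 0.59, 0.60 and, without Prl and Gh in the totals, 0.54. The median of the lysosome and phagocytosis list, -0.10, was 0.072 with TMM, 0.084 with DESeq2 size factors and 0.027 without Prl and Gh. These scalings raise all ratios by nearly the same amount. TMM and DESeq2 size factors each turned the count of genes at least 1.5-fold lower from 3 to 1 and that of genes at least 1.5-fold higher from 0 to 2, and without Prl and Gh both counts were 2. With the median transcript length or the merged exons in place of the longest transcript, 6 rather than 5 of the 10 genes lay above their class median, Ptprc being the one that crossed. Merged exons lowered the level of Csf1r to 3.09 and 5.24 CPM per kilobase. No paired analysis was possible because RNA-Best and RNAlater have 1 library each, and for the same reason no library could be left out. Among the 10 genes depth limited Mrc1, Cx3cr1 and Aif1 most, whose counting intervals were the widest.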
